A study of Mus musculus with 4 samples.

Results

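Dividing Lgr5 stem cells of the mouse intestine were described by the genes they carried beside Lgr5 and the proliferation genes Mki67 and Top2a. The cells were taken from 2 pooled single-cell RNA libraries of distal small-intestinal epithelium, in which 8 hashtag antibodies marked the 8 mice. Of 5452 deposited barcodes, 2011 had at least 1000 gene UMIs, at least 500 genes, under 20% mitochondrial UMIs and a top hashtag holding at least 60% of the hashtag counts. A cell was called a dividing Lgr5 cell if it held at least 2 Lgr5 UMIs and at least 4 UMIs of Mki67 and Top2a together, had no Atoh1 UMI, and had goblet genes (Muc2, Zg16, Fcgbp and Clca1) under 1% and Paneth genes (Lyz1, Defa17 and Defa24) under 0.5% of its UMIs. This gave 201 cells, 126 in pool 1 and 75 in pool 2. They were set against 325 dividing cells of the same filters and secretory limits with no Lgr5 UMI, and against 121 Lgr5 cells of the same limits with no Mki67 or Top2a UMI, here called non-dividing. A further 70 dividing cells held exactly 1 Lgr5 UMI.

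All mice carried Lgr5-EGFP-IRES-CreERT2 and Rosa26-mTmG and were given 4-OH-tamoxifen. The Lgr5 locus drives both EGFP and the tamoxifen-activated recombinase, and the reporter marks recombined cells and their descendants with GFP. Of these animals, 4 (mice 5 to 8) were traced for 72 h and 4 (mice 1 to 4) for 48 h. Each mouse gave a GFP-high sort, called clones here, and a GFP-negative sort, called control epithelium, with EpCAM, CD31 and CD45 staining. Clones of mice 3, 4, 7 and 8 and control cells of the other mice made up pool 1, and pool 2 held the reverse. Green signal from the Lgr5 allele and from the reporter cannot be told apart here, so the gates may themselves have sorted cells by Lgr5 expression.

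Lgr5 encodes a receptor for R-spondins, secreted proteins that strengthen Wnt signals at the crypt base. The cells that carry it sit between Paneth cells, divide throughout life and give rise to transit-amplifying cells, which also divide while they move up the crypt and take on absorptive or secretory fates. A dividing cell with Lgr5 RNA and a dividing cell without it therefore belong, by textbook anatomy, to neighbouring stages of the same lineage. Olfm4, Ascl2, Smoc2 and Axin2 are widely used markers of the crypt base cells, and Fabp6, Slc51a and Sis belong to absorptive cells, with Fabp6 and Slc51a serving bile acid uptake and export in the ileum.

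Promoter sequences of genes that parted the dividing classes are given here because the comparison turns on these genes: Olfm4 and Ascl2 are crypt base genes, Mmp7 is a Paneth and crypt base protease, and Fabp6 and Slc51a are bile acid genes that were lower in dividing Lgr5 cells. The windows are RefSeq promoters of GRCm38.p6 around each start site, written 5′ to 3′ on the strand of the gene. They are chr14:80000052-80000351 on the plus strand for Olfm4, chr7:142969215-142969514 on the minus strand for Ascl2, chr9:7691840-7692139 on the plus strand for Mmp7, chr11:43601513-43601812 on the minus strand for Fabp6 and chr16:32487830-32488129 on the minus strand for Slc51a. Capitals mark a TCF/LEF motif match (CTTTGAT or CTTTGAA, on either strand) in Mmp7 and an HNF4 motif match (CAAAGTC, on either strand) in Fabp6 and Slc51a, in each case on the opposite strand of the letters shown.
Olfm4: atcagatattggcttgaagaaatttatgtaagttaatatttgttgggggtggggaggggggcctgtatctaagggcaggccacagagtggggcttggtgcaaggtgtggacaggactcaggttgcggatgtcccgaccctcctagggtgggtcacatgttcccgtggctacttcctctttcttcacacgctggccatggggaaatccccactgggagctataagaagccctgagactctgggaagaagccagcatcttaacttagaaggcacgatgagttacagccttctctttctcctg
Ascl2: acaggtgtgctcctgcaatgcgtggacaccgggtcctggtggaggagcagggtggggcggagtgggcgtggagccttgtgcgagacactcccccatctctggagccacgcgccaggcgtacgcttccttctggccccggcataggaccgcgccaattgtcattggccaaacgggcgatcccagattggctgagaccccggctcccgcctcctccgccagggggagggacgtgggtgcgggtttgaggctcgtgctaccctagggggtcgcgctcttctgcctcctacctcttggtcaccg
Mmp7: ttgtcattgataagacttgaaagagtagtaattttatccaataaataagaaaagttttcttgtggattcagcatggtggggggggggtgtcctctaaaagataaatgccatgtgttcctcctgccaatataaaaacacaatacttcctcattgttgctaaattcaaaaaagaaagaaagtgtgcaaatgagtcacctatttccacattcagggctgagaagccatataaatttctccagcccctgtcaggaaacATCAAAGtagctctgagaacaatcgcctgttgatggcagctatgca
Fabp6: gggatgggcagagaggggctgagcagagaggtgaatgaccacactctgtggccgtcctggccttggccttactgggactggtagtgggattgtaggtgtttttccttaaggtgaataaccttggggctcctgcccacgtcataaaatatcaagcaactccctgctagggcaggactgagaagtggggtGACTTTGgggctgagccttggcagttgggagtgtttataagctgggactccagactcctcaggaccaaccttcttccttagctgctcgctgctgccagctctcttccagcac
Slc51a: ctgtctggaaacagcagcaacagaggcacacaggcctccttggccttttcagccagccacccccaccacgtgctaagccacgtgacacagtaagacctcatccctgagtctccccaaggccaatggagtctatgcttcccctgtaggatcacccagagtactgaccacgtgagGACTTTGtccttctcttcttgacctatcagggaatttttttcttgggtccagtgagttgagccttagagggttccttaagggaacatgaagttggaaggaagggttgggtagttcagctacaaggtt
Neither motif was found in the Olfm4 and Ascl2 windows. Among genes at least 1 log2 unit higher in dividing Lgr5 cells, 18 of 167 promoters (10.8%) held the TCF/LEF letters, against 6.25% of the 5506 promoters of all genes tested and 8.77% of all 27025 promoters in the table. Among genes at least 1 log2 unit lower, it was 8 of 134 (5.97%). The HNF4 letters were in 7 of 167 promoters of the higher genes (4.19%) and 7 of 134 of the lower ones (5.22%), against 3.49% of the tested genes. Scn2b, Klf6 and H2-Eb1 were among the higher genes with TCF/LEF letters. These matches describe letters in a window and show no binding.

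The values that chose the cells are described without a test. Dividing Lgr5 cells held a median of 5 Lgr5 UMIs (range 2 to 23) and a median of 27 UMIs of Mki67 and Top2a (range 4 to 246). At the edges of the rule, 41 of the 201 cells had exactly 2 Lgr5 UMIs and 18 had exactly 4 UMIs of Mki67 and Top2a, while 38 had 10 or more Lgr5 UMIs. Just outside lay the 70 dividing cells with 1 Lgr5 UMI, and 19 cells with enough Lgr5 that had 3 UMIs of the proliferation genes. The secretory limits removed few cells: of 222 that passed the Lgr5 and proliferation minimum, 21 had an Atoh1 UMI, 1 reached the goblet limit and 3 reached the Paneth limit.

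**Figure D1:**
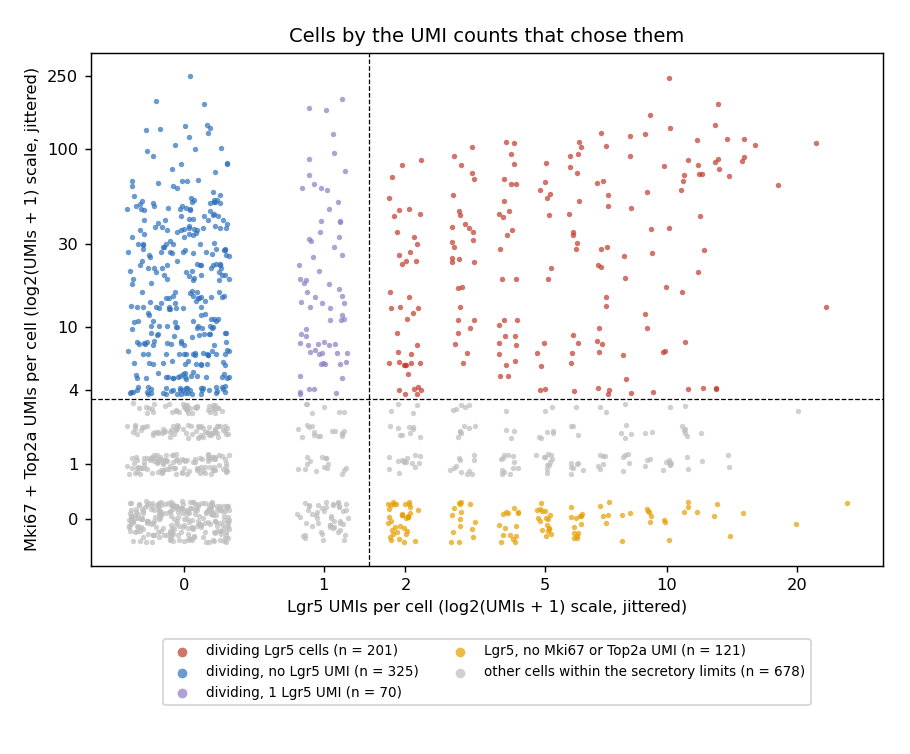
Each point is a cell within the secretory limits, placed by its Lgr5 UMIs (horizontal) and its Mki67 and Top2a UMIs (vertical), both on a log2(UMIs + 1) scale with jitter, and dashed lines mark the minimum counts of the rule. The 201 dividing Lgr5 cells fill the upper right region without a gap from the 70 cells with 1 Lgr5 UMI.

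Depth and mitochondrial share differed between the classes. Dividing Lgr5 cells had a median of 25365 UMIs, 5205 genes and 6.37% mitochondrial UMIs, against 16205 UMIs, 4257 genes and 12.8% in dividing cells without Lgr5. The mitochondrial median was lower in the Lgr5 cells in all 8 mice. Non-dividing Lgr5 cells had 18341 UMIs and 6.62% mitochondrial UMIs. A cell with more UMIs more readily reaches 2 Lgr5 UMIs, so shares of cells with a UMI of a gene, and the shares of dividing Lgr5 cells by gate and time, are also given after thinning every cell to 5000 UMIs. Cells rich in enterocyte genes, used to gauge free RNA, held little Lgr5. Among 61 of them with no Mki67 or Top2a UMI (median 24826 UMIs), 1 held a Lgr5 UMI (1.64%, Wilson 95% interval 0.290% to 8.72%) and 0 held 2. The pools shared 1 barcode, which was not a dividing Lgr5 cell.

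The label was checked against markers the rule did not use. After thinning, Olfm4 was seen in 98.5% of dividing Lgr5 cells and 54.3% of dividing cells without Lgr5, with 16.7% in the enterocyte-rich cells (unthinned 99.5%, 76.3% and 49.2%). Axin2, a target and brake of Wnt signalling, was seen in 76.1% of dividing Lgr5 cells and 40.3% of dividing cells without Lgr5, against 27.8% in the enterocyte-rich cells (unthinned 98.5%, 71.7% and 50.8%). For Ascl2, a transcription factor of the stem cell state, the shares were 19.9% of dividing Lgr5 cells and 4.44% of dividing cells without Lgr5, with 0 of 54 enterocyte-rich cells (unthinned 63.2%, 14.2% and 1.64%). Smoc2, which encodes a matricellular protein, gave 65.7% and 34.0%, against 7.41% in the enterocyte-rich cells (unthinned 96.5%, 66.2% and 16.4%). Cdk1, the kinase that drives mitotic entry, was seen after thinning in 33.8% of dividing Lgr5 cells and 31.1% of dividing cells without Lgr5, but in 1.69% of non-dividing Lgr5 cells (unthinned 63.2%, 57.2% and 9.92%). Birc5, part of the complex that guides chromosome segregation, gave 48.3%, 57.8% and 1.69% in the same order (unthinned 73.6%, 77.5% and 9.09%). Crypt base and cell cycle markers outside the rule were thus both seen in these cells.

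Counts were summed per mouse and class before testing, so that the mouse and not the cell was the replicate. Each mouse contributed 8 to 65 dividing Lgr5 cells, and the 7 mice with at least 10 cells in both classes (all but mouse 4) entered the comparison with dividing cells without Lgr5. Levels are counts scaled to a common total per sum (CPM), and differences are log2 fold changes from edgeR's quasi-likelihood F-test with mouse as a block, adjusted over all genes tested by the Benjamini-Hochberg method. Called means adjusted p under 0.05. Of 6866 genes tested, 1120 (16.3%) were higher and 1162 (16.9%) were lower in dividing Lgr5 cells, so a call alone was common here and sizes carry more. In 499 genes (7.27%) the ranges of both classes did not overlap.

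Crypt base stem genes were higher in dividing Lgr5 cells across nearly the whole list. Apart from Lgr5, 29 of the listed genes could be tested, 27 were called higher and 0 lower, and their median log2 difference was 1.70, against 0.01 over all genes tested. The members were selected on Lgr5, a gene of the same list, so this direction is not independent of the selection. Olfm4, which encodes a glycoprotein secreted at the crypt base (chr14:79984081-80023139, GRCm38), stood at 3081, 5422 and 5799 CPM (lowest, median and highest of 7 mice) in dividing Lgr5 cells, against 270, 575 and 880 CPM in dividing cells without Lgr5. The ranges lay far apart, and the difference was 3.19 ± 0.13 log2 units (SE; edgeR adjusted p = 1.4e-15), higher in 7 of 7 mice.

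Soat1, the enzyme that esterifies cholesterol (chr1:156424525-156474331), reached 100.1, 171 and 198 CPM in dividing Lgr5 cells, against 5.81, 20.8 and 25.3 CPM in those without Lgr5. Pdgfa, a growth factor ligand, stood at 197, 294 and 400 CPM in dividing Lgr5 cells, against 26.2, 53.7 and 91.8 CPM. Igfbp4, which binds insulin-like growth factors, stood at 61.8, 100.5 and 112 CPM, against 10.0, 17.8 and 31.6 CPM. None of these 3 genes overlapped between the classes, and their log2 differences were 3.30, 2.52 and 2.53. Slc14a1, a urea transporter, was nearly absent without Lgr5: 28.1, 57.2 and 94.8 CPM in dividing Lgr5 cells, against 0, 1.42 and 3.94 CPM in dividing cells without it. Sorbs2, an adaptor of the actin cytoskeleton, was 2.53 log2 units higher, but its ranges overlapped (50.0 to 150 CPM against 5.81 to 55.4 CPM). Other genes of the list that were higher included Msi1, an RNA-binding protein (3.76 log2), and Rgmb, a co-receptor for bone morphogenetic proteins (2.46). They also included Ascl2 (2.35), the cell-surface glycoprotein Cd44 (1.84), Sox9 (1.78), the chloride co-transporter Slc12a2 (1.70), Smoc2 (1.44) and Lrig1 (1.29). Bmi1 (0.34) and Lgr4 (0.07), a sister receptor of Lgr5, did not pass the test.

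Of 17 Wnt signalling genes tested, 9 were called higher and 2 lower, with a median of 0.31 log2. Over all genes tested, 16.3% were called higher and 16.9% lower, so the 2 lower genes do not exceed the general share. The same general shares apply to the lists that follow. The negative feedback genes were among the higher ones: Axin2 had 257, 365 and 440 CPM in dividing Lgr5 cells, against 60.1, 102 and 163 CPM in dividing cells without Lgr5, a difference of 1.76 log2 with no overlap. Rnf43 and Znrf3, ubiquitin ligases that remove Wnt receptors and are themselves held in check through R-spondin and Lgr5, were 1.09 and 1.07 log2 units higher. Ephb3, a receptor that helps to place cells along the crypt, was 2.20 higher and Myc 0.82 higher. The Wnt receptor Fzd5 was lower by 0.65 log2 (76.4 to 118 CPM against 126 to 182 CPM), as was the potassium channel gene Kcnn4 (-0.49). Ctnnb1, which encodes beta-catenin, differed by 0.30.

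Notch signalling keeps crypt base cells from secretory fates. Notch1 was 1.30 log2 units higher in dividing Lgr5 cells (51.8, 66.0 and 109 CPM, against 14.5, 22.6 and 36.8 CPM), and its target Hes1 was 1.11 higher. In all, 3 of 5 tested Notch genes were higher and 0 were lower. Of 7 Eph receptors and ephrins, 4 were higher and 0 lower, among them Efna4 (1.42). Of 11 receptors for niche signals, 5 were higher, including Igf1r (1.17), the insulin-like growth factor receptor, and Ptger4 (0.88), a prostaglandin receptor, and Fzd5 was the 1 that was lower. Genes of the response to bone morphogenetic proteins, which act against stem cell growth higher in the crypt, split: Id1 (-1.15), Smad7 (-0.86) and Id3 (-0.70) were lower and Smad5 (1.09) and Bmpr2 (0.48) were higher, of 9 tested.

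Among genes with mean log2 CPM of 5 or more, the largest difference on the higher side fell outside the stem lists. Edn1, which encodes the signalling peptide endothelin (chr13:42301476-42307990), had 82.2, 440 and 557 CPM in dividing Lgr5 cells, against 2.83, 9.48 and 12.1 CPM in dividing cells without Lgr5. That is 5.38 ± 0.18 log2 units (SE; edgeR adjusted p = 1.53e-17) in 7 of 7 mice. After thinning, 52.7% of dividing Lgr5 cells and 4.76% of dividing cells without Lgr5 held an Edn1 UMI, with 9.26% in the enterocyte-rich cells. The cells without Lgr5 thus did not exceed the enterocyte-rich cells. Whether the Edn1 UMIs of either are free RNA was not tested. Endothelial cells also express Edn1. Of 6 endothelial markers, 4 (Cdh5, Kdr, Cldn5 and Emcn) had no UMI in dividing Lgr5 cells or in dividing cells without Lgr5. The other markers had UMIs in both classes. The summed list stood at 0, 8.51 and 18.7 CPM in dividing Lgr5 cells, against 0, 0 and 1.33 CPM in those without Lgr5. Any endothelial part in the Edn1 difference was not tested.

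The remaining genes that led on the higher side were Cldn4, a tight junction protein (3.32 log2), Ccn1, a matrix protein and target of YAP (3.10), the orphan nuclear receptor Nr4a1 (2.89), Phlda1 (2.84) and Fam13a (2.5). Nr4a1 belongs with the immediate early genes, which respond within minutes to growth signals and to tissue dissociation. Of 12 such genes listed, 11 were higher in dividing Lgr5 cells, with a median of 0.98 log2. Atf3 stood at 288, 576 and 785 CPM in dividing Lgr5 cells, against 59.5, 179 and 246 CPM in dividing cells without Lgr5 (1.84 log2, no overlap). Jun (1.15) and Egr1 (1.34) showed no overlap either. Both classes came from the same mice, but not in equal parts from the clone and control sorts. In mouse 5, 52.3% of dividing Lgr5 cells and 25.4% of dividing cells without Lgr5 were clone cells. In mouse 3 these shares were 0% and 10.3%. Any part of handling in the differences of immediate early genes was not tested.

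**Figure D2:**
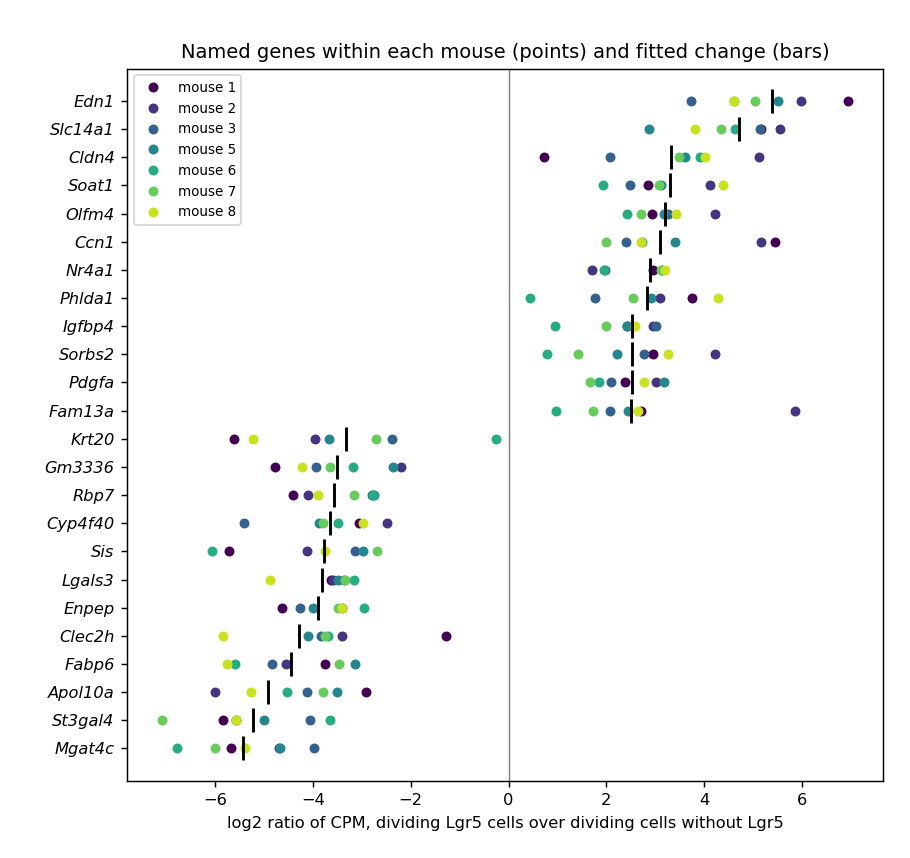
Points give, for each of 7 mice, the log2 ratio of CPM in dividing Lgr5 cells over dividing cells without Lgr5 for the 24 genes with the largest called differences, and black bars give the fitted log2 fold change. The genes were chosen to move the same way in all mice, so every point lies on the side of its bar. The bars run from Edn1 (5.38) at the top to Mgat4c (-5.43) at the bottom.

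Absorptive genes were lower in dividing Lgr5 cells. Of 16 immature enterocyte genes tested, 14 were lower and 0 higher, with a median of -1.28 log2. Fabp6, the ileal bile acid carrier (chr11:43596049-43601540), had 23.5, 52.4 and 75 CPM in dividing Lgr5 cells, against 527, 1194 and 2599 CPM in dividing cells without Lgr5 (-4.46 ± 0.22 log2, SE; edgeR adjusted p = 2.83e-14). Slc51a, a subunit of the bile acid exporter, had 0, 1.42 and 3.62 CPM against 25.5, 54.0 and 76.2 CPM, and Nr1h4, the bile acid receptor, was lower by 1.58 log2. Neither Fabp6 nor Slc51a overlapped between classes. Sis, which encodes the digestive enzyme sucrase-isomaltase, had 0, 2.32 and 7.24 CPM against 20.3, 46.6 and 82.2 CPM. After thinning, a Sis UMI was seen in 0.995% of dividing Lgr5 cells and 12.4% of dividing cells without Lgr5 (unthinned 8.46% and 28.6%). Only 4 of 16 mature enterocyte genes could be tested, and 1 of them was lower.

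The remaining genes that led on the lower side had varied roles. Mgat4c, a glycosyltransferase (chr10:101681487-102391469), had 0, 1.81 and 8.93 CPM in dividing Lgr5 cells, against 62.3, 87.2 and 271 CPM in dividing cells without Lgr5 (-5.43 log2). St3gal4, a sialyltransferase, had 0, 3.62 and 17.9 CPM against 69.4, 163 and 315 CPM (-5.22). Lgals3, which encodes a galectin, had 6.39, 13.6 and 26.5 CPM against 144, 171 and 246 CPM (-3.82), and Enpep, an aminopeptidase of the brush border, had 0, 4.25 and 5.89 CPM against 29.7, 58.1 and 62.3 CPM (-3.90). Apol10a (-4.93), the lectin-like Clec2h (-4.28), the cytochrome P450 gene Cyp4f40 (-3.66), the retinol carrier Rbp7 (-3.58) and Gm3336 (-3.51) did not overlap between classes. The keratin gene Krt20 (-3.32) did: it stood at 1.74, 3.49 and 50.0 CPM in dividing Lgr5 cells, against 37.6, 62.3 and 232 CPM. The general intestinal transcription factors differed less, with Hnf4g at -0.68, Klf5 at -0.41, Hnf4a at -0.28 and Gata6 at 0.44.

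Secretory genes had been used in part by the rule, and those it used were not tested. Of the others, Guca2a (-1.69), Tff3 (-0.80) and Agr2 (-0.56) were lower and 0 of 4 goblet genes were higher. The Paneth list went both ways: Mmp7 (2.43), Defa30 (1.08) and Defa22 (1.03) were higher in dividing Lgr5 cells, and Reg3g, an antimicrobial lectin that enterocytes also make, was lower (-2.55). The defensin genes belong to a family of close copies, so their single values are uncertain. For Mmp7 the classes overlapped (8.80, 24.4 and 231 CPM against 5.81, 9.19 and 23.3 CPM). Sox4, a transcription factor also listed with secretory progenitors, was 1.84 higher. The summed Paneth list stood at 401, 1007 and 1320 CPM in dividing Lgr5 cells, against 640, 3939 and 7754 CPM in dividing cells without Lgr5. This sum includes Reg3g, with a mean log2 CPM of 10.9, against 5.48 for Mmp7 and 5.03 for Defa22. It therefore does not describe the other Paneth genes. The summed goblet list, which includes genes the rule limited, stood at 377, 481 and 986 CPM against 591, 839 and 1225 CPM. Immune genes stayed between 0 and 14.4 CPM in dividing Lgr5 cells and between 0 and 8.90 CPM in dividing cells without Lgr5, with 5 of 8 markers at 0 in the Lgr5 cells (Cd3e, Cd8a, Gzmb, Lyz2 and Tyrobp). What these other transcripts contribute to the differences was not tested.

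Genes that present antigen on MHC class II were higher in dividing Lgr5 cells in 6 of 7 cases, and 0 were lower. H2-Ab1 had 299, 499 and 774 CPM against 123, 231 and 456 CPM (1.04 log2), and Ciita, the transcriptional activator of the pathway, differed by 1.94. Both overlapped between classes. Ifitm3, an interferon-induced membrane protein, had 389, 536 and 794 CPM against 130, 168 and 310 CPM (1.73, no overlap), as 1 of 3 genes higher among 6 of the interferon list.

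Growth and energy genes differed by smaller amounts in many genes at once. Of 44 cytosolic ribosomal protein genes, 39 were higher in dividing Lgr5 cells and 0 lower, with a median of 0.39 log2. Of 28 nuclear genes for oxidative phosphorylation, 25 were lower and 0 higher, with a median of -0.40. Cox5a had 441, 530 and 645 CPM in dividing Lgr5 cells, against 828, 906 and 1158 CPM in those without Lgr5 (-0.79). Of 13 mitochondrially encoded genes, 12 were lower (median -0.49), which parallels the mitochondrial shares above. The filter on mitochondrial share acts on the last of these lists directly.

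The cell cycle lists took similar shares of UMIs in the dividing classes. Both classes had to reach the same minimum of Mki67 and Top2a, and the G2/M list moves with these genes. The likeness is therefore not independent of the selection, also with Mki67 and Top2a left out. Per mouse, genes of the G1/S list, without Mki67 and Top2a, took 0.275 ± 0.087% of UMIs in dividing Lgr5 cells and 0.269 ± 0.050% in dividing cells without Lgr5 (SD, n = 7 mice). The difference of 0.006 percentage points was not detectable (exact two-sided sign-flip p = 0.812, higher in 4 of 7 mice). The G2/M list took 0.759 ± 0.077% and 0.746 ± 0.174% (exact p = 0.906, higher in 4 of 7 mice), also within the spread of mice. At a mitochondrial limit of 10% the G2/M difference was larger, at 0.121 percentage points (exact sign-flip p = 0.125, higher in 4 of 5 mice). G1/S exceeded G2/M in 45 of 201 dividing Lgr5 cells (22.4%) and 81 of 325 dividing cells without Lgr5 (24.9%). Over all genes tested, 16.3% were called higher and 16.9% lower. Gene by gene, 3 of 39 G1/S genes were higher and 1 lower, and 8 of 45 G2/M genes were higher and 1 lower, near or below those shares. The largest of these were Exo1 (0.92), Ttk (0.68) and Kif2c (0.67), and Rrm2 was lower (-0.79).

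Regulators of the entry into the cycle did differ. Cdk6, a cyclin D partner, had 127, 191 and 251 CPM in dividing Lgr5 cells, against 40.9, 66.4 and 97 CPM in dividing cells without Lgr5 (1.43 log2, no overlap), and Cdk4 was 0.57 higher. The inhibitor gene Cdkn2b had 0, 2.32 and 6.98 CPM against 32.9, 48.6 and 63.7 CPM (-3.94, no overlap). Cdkn1a, which encodes p21, had 0, 10.5 and 24.5 CPM against 20.3, 41.7 and 60 CPM (-1.62). Cdkn1b was 0.35 higher. Ccnd2 (-0.37) and Ccnd3 (-0.60) were lower, and Ccnd1 (-0.21) did not pass the test.

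Within dividing cells, the same genes were then followed over rising Lgr5 counts. These bins share libraries, and depth and mitochondrial share move with them, from mean medians of 16388 UMIs and 12.4% at 0 Lgr5 UMIs to 32947 UMIs and 5.43% at 8 or more, so the values are given as a description, and the part of depth was not tested. Olfm4 averaged 551 ± 177 CPM in dividing cells with 0 Lgr5 UMIs (SD, n = 8 mice), 1779 ± 917 at 1 UMI (n = 8), 2297 ± 1143 at 2 (n = 5), 4375 ± 974 at 3 to 4 (n = 7), 6413 ± 1362 at 5 to 7 (n = 7) and 6499 ± 606 at 8 or more (n = 5). The bins thus do not hold the same mice throughout. The 2 highest bins did not differ beyond their spread. Slc12a2 averaged 407, 759, 1116, 1278, 1278 and 1552 CPM over the same bins. Soat1 averaged 15.7, 57.3, 103, 132, 161 and 192 CPM.

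Fabp6 and St3gal4 were already low at the lowest Lgr5 count the rule admits, in a bin that does not hold all the mice. Fabp6 averaged 1574 ± 1090 CPM in dividing cells with 0 Lgr5 UMIs, 885 ± 1780 at 1 and 72.6 ± 35.9 at 2, and between 44.8 and 61.3 CPM above that. St3gal4 averaged 193 CPM at 0, 82.5 at 1, 14.9 at 2 and 2.33 to 3.65 above that. Dmbt1, a mucosal scavenger receptor gene, went on being lower up to the top bin: 1637, 953, 771, 168, 77.3 and 50.0 CPM. Pcna, a replication gene, showed no order (165, 204, 122, 203, 186 and 175 CPM). The cells with 1 Lgr5 UMI stood between the classes in Olfm4 and Fabp6, with an SD for Fabp6 larger than its mean.

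**Figure D3:**
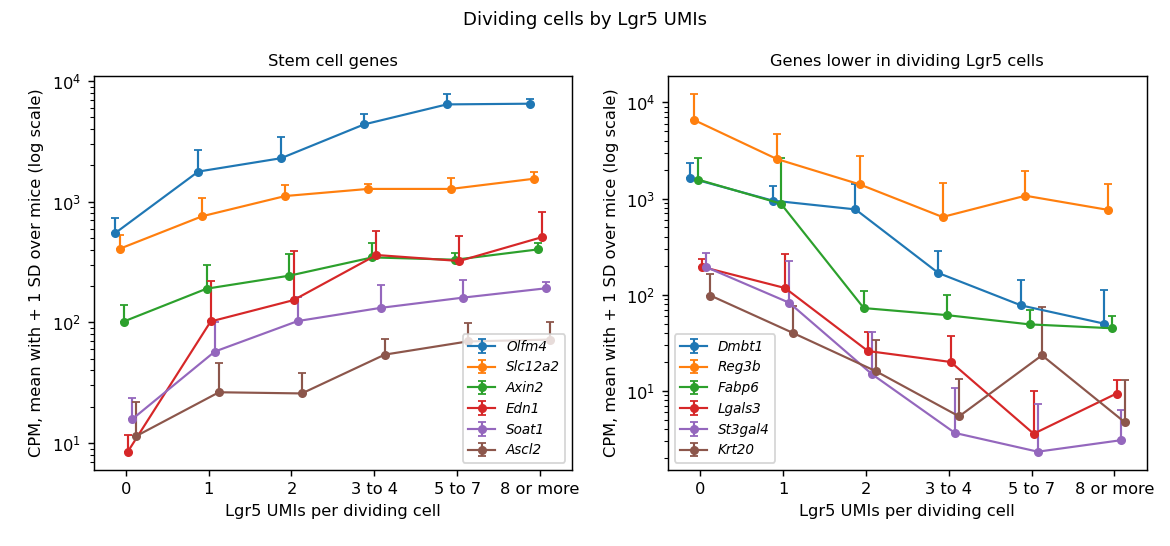
Mean CPM with 1 SD over mice (vertical, log scale) of 6 stem cell genes (left) and 6 genes lower in dividing Lgr5 cells (right), against the Lgr5 UMIs of dividing cells (horizontal). Olfm4 goes up to 6499 CPM in the bin of 8 or more UMIs, and Fabp6 lies at 72.6 CPM or below from 2 UMIs on.

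The second comparison asked what division adds within Lgr5 cells. Dividing Lgr5 cells were set against non-dividing Lgr5 cells of the same mouse in the 4 mice with at least 10 cells of each, all traced for 72 h. Of 6325 genes tested, 440 (6.96%) were higher and 353 (5.58%) were lower in dividing Lgr5 cells, and 741 (11.7%) did not overlap between classes. The lower side was the less stable: 87 genes were lower with DESeq2, 103 without the mouse block and 54 at a hashtag minimum of 80%, while 227, 292 and 293 were higher. The classes were chosen on Mki67 and Top2a, which belong to the G2/M programme, so the direction of that list follows from the choice. Of 44 G2/M genes, 43 were higher, with a median of 4.53 log2, or 4.47 with Kif2c, which had no UMI in non-dividing cells, set at its bound.

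Mitotic genes were close to 0 in the non-dividing Lgr5 cells. Cenpf, a kinetochore gene, had 524, 524, 585 and 528 CPM in the dividing Lgr5 cells of mice 5, 6, 7 and 8, against 4.3, 7.1, 25.0 and 20.0 CPM in their non-dividing Lgr5 cells (5.34 log2). Nusap1, a spindle gene (chr2:119618298-119651244), had 177, 175, 265 and 242 CPM against 0, 0, 0 and 5.71 CPM (7.20 log2). Aspm, another spindle gene, had 76.7, 66.6, 101 and 101 CPM against 0 in all 4 mice, at least 49.7-fold higher when the non-dividing group is set at 3 counts over its 1727752 UMIs. Melk (at least 28.8-fold) and Kif2c (at least 24.6-fold) were absent from the non-dividing cells in the same way. Aurkb (6.34), Hmmr (6.23), Ndc80 (6.15), Ttk (5.88) and Tpx2 (5.62) followed, with no overlap.

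G1/S genes differed less than G2/M genes. Of 26 G1/S genes, 16 were higher in dividing Lgr5 cells and 0 lower, with a median of 0.81 log2. Tk1, thymidine kinase, had 51.5, 41.6, 61.2 and 84.3 CPM in dividing Lgr5 cells, against 4.3, 0, 5.55 and 5.71 CPM in non-dividing ones (3.70). Pcna had 142, 38.8, 207 and 208 CPM against 64.5, 35.5, 122 and 62.8 CPM (1.02), higher within each mouse although the classes overlapped. Cdkn1b, which encodes the inhibitor p27, was 0.81 higher in dividing cells, with 93.3, 144, 102 and 100.3 CPM against 57.3, 42.6, 72.2 and 54.2 CPM. Ccnd3 was 1.08 lower and Cdk6 0.51 lower.

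Stem genes and ribosomal genes were somewhat lower in the dividing Lgr5 cells. Of 31 crypt base genes other than Lgr5, 0 were higher and 10 lower, with a median of -0.25 log2 against -0.02 over all genes. Pdgfa had 300.9, 186, 283 and 387 CPM in dividing Lgr5 cells, against 490, 301.6, 533 and 582 CPM in non-dividing ones (-0.79). Igfbp4 had 96.8, 58.2, 96.6 and 105 CPM against 155, 110, 136 and 106 CPM, and was the only 1 of the 10 whose classes did not overlap (-0.55). Sorbs2 (-1.03), Soat1 (-0.47), Slc12a2 (-0.45) and Olfm4 (-0.44) were lower as well. Ascl2 (0.17), Axin2 (-0.10) and Smoc2 (-0.23) did not pass the test. Lgr5, which the rule used, stood at 222, 194, 226 and 239 CPM in dividing Lgr5 cells and 315, 252, 294 and 223 CPM in non-dividing ones. Each class had to reach the same minimum of Lgr5 UMIs, which a shallower cell reaches only at a higher Lgr5 share. Median depth per mouse was 25059, 25095, 24916 and 25775 UMIs in dividing Lgr5 cells, against 19909, 19418, 15965 and 17626 in non-dividing ones. The lower direction of the stem list is therefore not independent of the selection, and the part of depth was not tested. Of 44 ribosomal protein genes, 43 were lower and 0 higher, with a median of -0.29.

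The genes with the largest differences on the lower side were not stem genes for the most part. Ogt, which adds single sugars to nuclear and cytoplasmic proteins, had 82.0, 72.1, 87.0 and 85.4 CPM in dividing Lgr5 cells, against 179, 142, 150 and 166 CPM in non-dividing ones (-1.05, no overlap). Zfas1, a noncoding host of small nucleolar RNAs, had 407, 294, 243 and 220 CPM against 662, 685, 511 and 442 CPM (-1.03, no overlap). Mxd4, which opposes Myc at shared targets, had 48.8, 38.8, 34.0 and 25.8 CPM against 71.6, 85.2, 47.2 and 85.6 CPM (-1.02). Nupr1, a stress-induced chromatin protein, had 70.6, 19.4, 35.4 and 20.2 CPM against 285, 21.3, 103 and 74.2 CPM (-1.85), with the classes overlapping. Kdm5b, a histone demethylase (-1.11), the protease gene Ctsl (-1.12), Lbh (-1.19), Dst (-1.30), AA986860 (-1.04), Naip6 (-1.04) and Naip5 (-1.01) completed the set. Naip5 and Naip6 are close paralogs whose reads the counting may have split, so their values are uncertain. With DESeq2, Ctsl, Mxd4, AA986860, Naip5 and Naip6 did not pass the test, and in control cells only (2 mice) neither did Ctsl, Dst, Kdm5b, Mxd4, Naip5, Naip6 and Ogt.

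Over all 461 Lgr5 cells, the proliferation count and the stem genes could be followed in steps. The G2/M list averaged 0.088 ± 0.024% of UMIs in Lgr5 cells with 0 UMIs of Mki67 and Top2a, 0.101 ± 0.022% at 1 to 3, 0.249 ± 0.076% at 4 to 9, 0.583 ± 0.125% at 10 to 39 and 1.27 ± 0.21% at 40 or more (SD over 7 or 8 mice). The G1/S list averaged 0.161, 0.170, 0.206, 0.310 and 0.286%. Lgr5 cells with 1 to 3 proliferation UMIs, which lay outside the rule, were thus within the spread of those with 0. Pdgfa averaged 467, 470, 395, 250 and 244 CPM over these steps, and Ogt 160, 137, 115, 84.3 and 74.3 CPM. Nupr1 averaged 95.3, 123, 52.5, 26.3 and 10.9 CPM with SDs near the size of its means or above, and Lgr5 itself 304.8, 279, 235, 205 and 216 CPM. Median depth differed along the same steps, with mean values over mice of 16755, 18597, 20138, 24786 and 34671 UMIs.

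**Figure D4:**
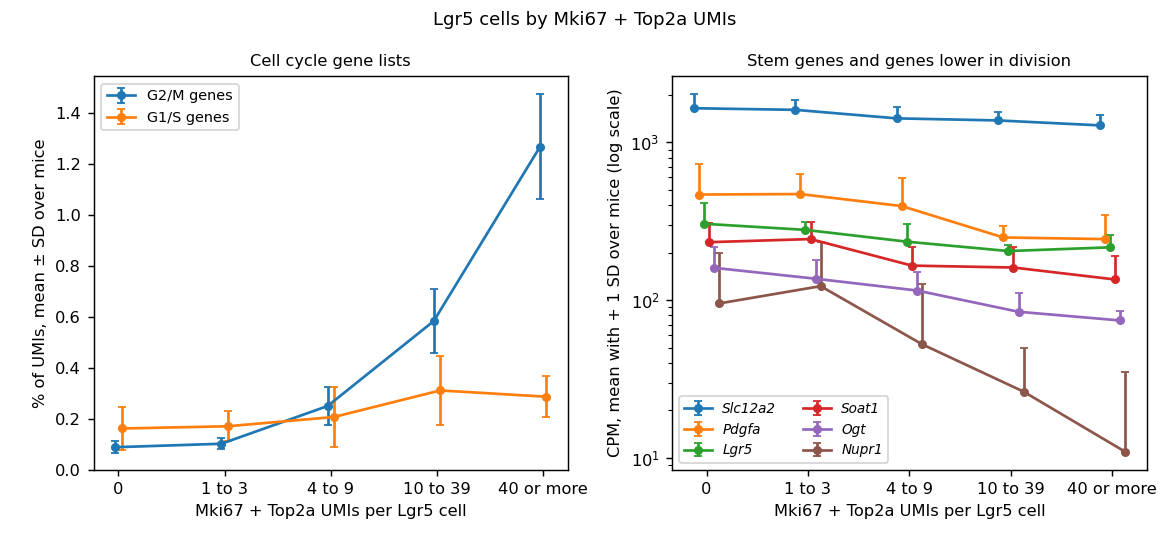
Left, the share of UMIs (percent, mean ± SD over mice) of the G2/M and G1/S lists, and right, mean CPM with 1 SD over mice (log scale) of 6 genes, against the Mki67 and Top2a UMIs of Lgr5 cells (horizontal). The G2/M share reaches 1.27% at 40 or more UMIs, while Lgr5 lies between 205 and 304.8 CPM throughout.

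The study's design compares clones with control cells and 72 h with 48 h of tracing. Dividing Lgr5 cells made up 14.1, 8.11, 16.8 and 15.7% of the clone cells of mice 5, 6, 7 and 8, against 8.5, 7.46, 9.76 and 6.01% of their control cells, all at 72 h. At 48 h they were 0 of 4, 3 of 18 (16.7%), 0 of 46 and 0 of 8 clone cells of mice 1, 2, 3 and 4, against 6.58, 13.2, 8.33 and 4.94% of control cells. The 48 h clones thus held 76 filtered cells in all, and a count of 0 among 46 allows a share of up to 7.71% (upper Wilson 95% bound, counting error only). Over both times the share was 8.93 ± 7.88% in clones and 8.10 ± 2.56% in control cells (SD, n = 8 mice each; exact two-sided permutation p = 0.769, exact sign-flip p = 0.727, higher in 5 of 8 mice). In clones, the mean was 13.7 ± 3.89% at 72 h and 4.17 ± 8.33% at 48 h (exact permutation p = 0.114, n = 4 each). After thinning the direction turned, with 2.71 ± 2.17% at 72 h and 5.0 ± 10.0% at 48 h, the 48 h mean coming from 1 mouse alone. In control cells it was 7.93 ± 1.59% at 72 h and 8.26 ± 3.57% at 48 h (exact permutation p = 0.914), and 1.43 ± 0.82% and 1.5 ± 1.38% after thinning. Thinned shares over both times were 3.85 ± 6.81% in clones and 1.46 ± 1.05% in control cells (exact permutation p = 0.460, n = 8 each). None of these differences passed 0.05. Without mouse 2 the unthinned time difference in clones was 13.7 percentage points with exact p = 0.0286, so the call changes without that mouse and the direction changes after thinning.

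Taken as a share of dividing cells, 33.8 ± 23.4% of dividing clone cells and 29.0 ± 7.14% of dividing control cells held 2 or more Lgr5 UMIs (SD, 7 and 8 mice; exact permutation p = 0.584). Thinned, these were 24.9 ± 38.0% and 7.94 ± 5.50% (6 and 8 mice; exact permutation p = 0.189). At 72 h alone, a split made after the values were seen, the shares were 53.5, 42.9, 46.3 and 44.3% in clones of mice 5, 6, 7 and 8, against 24.4, 31.2, 33.3 and 25.0% in their control cells. These groups did not overlap, and the difference of 18.2 percentage points had an exact permutation p of 0.0286, the smallest that 4 against 4 allows, while the exact sign-flip p was 0.125, the smallest for 4 pairs. After thinning to 5000 UMIs the 72 h shares were 12.3 ± 10.5% in clones and 8.22 ± 5.68% in control cells (exact permutation p = 0.514), higher in 3 of 4 mice. Thinning leaves far fewer cells with 2 Lgr5 UMIs and a wider spread, and the part of depth in the difference was not tested. The direct effect of the GFP-high gate on Lgr5 cannot be told apart from that of tracing.

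**Figure D5:**
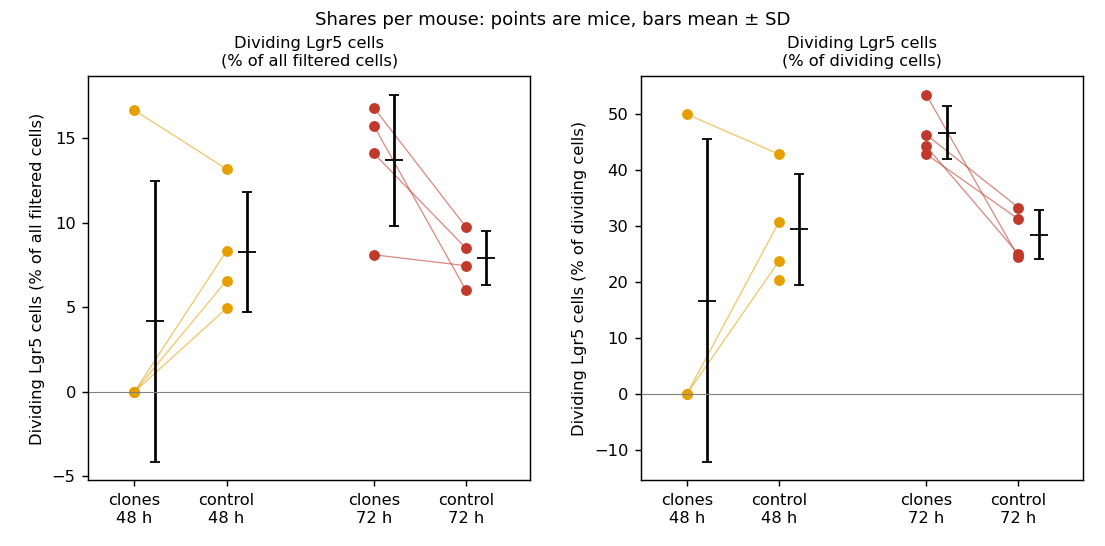
Each point is 1 mouse, with lines joining the clones and control cells of the same mouse and black bars giving mean ± SD. Dividing Lgr5 cells are shown as percent of all filtered cells (left) and percent of dividing cells (right). At 72 h all 4 mice have higher shares in clones than in control cells, and at 48 h 3 of the 4 clone samples have no such cell or no dividing cell.

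Gene by gene, dividing Lgr5 cells of clones and of control epithelium could be compared over 9 sums of at least 10 cells. The sums came from 7 mice, since mice 5 and 8 gave a clone and a control sum each, and the fit had no mouse block, so sums of 1 animal count as separate samples. With mouse as a block, 0 genes were called between clones and control as well (254 with an unadjusted p under 0.05). All 3 clone sums came from 72 h mice, against 3 control sums at 72 h and 3 at 48 h. Of 6136 genes tested, 0 (0%) were called by edgeR (247 had an unadjusted p under 0.05) and 0 by DESeq2. The G1/S list lay above 0 in 32 of 38 genes (median 0.42 log2) and the G2/M list in 44 of 46 (median 0.26), with all genes at -0.01. None of these genes was called. At 72 h, Lgr5, used by the rule, stood at 242, 286 and 271 CPM in dividing Lgr5 cells of clones, against 208, 213 and 146 CPM in those of control epithelium. Olfm4 stood at 5783, 5953 and 5188 CPM in these clones, against 5270, 3105 and 6184 CPM. Lgr5 did not overlap between these sums and Olfm4 did. Without mouse 8, Dmbt1 (-3.43), Tff3 (-2.45) and Pcna (1.85) were called.

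Between 72 h and 48 h, 0 of 6136 genes were called in dividing Lgr5 cells (0%; 463 with an unadjusted p under 0.05), while DESeq2 called 1, Zbtb16. Ribosomal protein genes were above 0 in 44 of 44 cases (median 0.34 log2, 31 with unadjusted p under 0.05) and G1/S genes in 6 of 38 (median -0.42), again with no gene called. Without mouse 8 the count was 42 genes, which included Tff3 (2.56) and Sgk1 (3.02). The difference between dividing cells with and without Lgr5 did not change detectably with time: 0 of 7951 genes (0%) were called for the interaction by edgeR or DESeq2, and 341 had an unadjusted edgeR p under 0.05. The interaction (72 h minus 48 h) lay above 0 in 44 of 46 G2/M genes (median 0.52 log2, 21 with unadjusted p under 0.05) and in 10 of 43 G1/S genes (median -0.35), with none called.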

How the data were processed

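Cell Ranger 6.1.2 and mm10 are named in the submitters' processing notes. The deposited matrices hold raw UMI counts per gene and counts per hashtag, without normalization, per the file headers. The gene and barcode lists deposited beside them hold other information (identifiers, names, barcode letters). The authors' cell filters and hashtag caller are not given in the sources used here. Pool 1 held 30278443 gene UMIs over 3342 barcodes and pool 2 held 28050962 over 2110, for 32285 genes.

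The top hashtag of a cell named its mouse, and the labels tie each mouse in each pool to a gate. The hashtag minimum of 60% can lower the number of doublets between mice but not of those within a mouse, and no doublet caller was run. Counts were summed per mouse and class (at least 10 cells) and tested by the quasi-likelihood F-test of edgeR 4.0.16 under R 4.3.3, after filterByExpr and TMM scaling, with Benjamini-Hochberg adjustment over all genes. Both classes of a mouse come from the same animal, so mouse was a block in class comparisons. The clone-control fit had pool and time as terms and no mouse block. DESeq2 1.42.0 was an alternative. Genes that chose the cells were fitted but left out of counts over lists. Shares were compared by exact permutation and exact sign flips over mice. Thinning drew 5000 UMIs per cell with a fixed seed, and left out 0 dividing Lgr5 cells and 10 dividing cells without Lgr5. Enterocyte-rich cells had at least 1% of UMIs from Krt20, Sis, Fabp2 and Fabp6, a rule added after a first rule (Apoa1, Apoa4, Apoc3 and Alpi) gave 0 cells. Wilson 95% intervals cover counting error only.

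Named genes were members of the gene lists and, in each direction, the 12 called genes that changed most, if they moved the same way in all mice and their mean log2 CPM was 5 or more. The cells, comparisons and lists were chosen with earlier results of these data known. Gene positions are from GENCODE M21 (GRCm38). Scripts that test many genes were tested on simulated data. Alternatives were other filters, depths, gates, pools, normalizations and blocks, and each mouse left out in turn. Python 3.11.15 with numpy 2.4.6 and scipy 1.17.1 did the rest.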

Additional observations from a re-analysis of the deposited data

Results flagged for a closer look

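Of 57 groups of 4 to 8 values examined for a sample far from the others, 4 had one, and chance gives about 1 in 20 groups. Among the 48 h clones, mouse 2 had a share of dividing Lgr5 cells of 16.7% (3 of 18 cells), while the other mice had 0%. The log2 ratio of Fam13a between dividing Lgr5 cells and dividing cells without Lgr5 was 5.85 in the highest mouse, mouse 2, where the level without Lgr5 was 0 CPM. For Lgals3 the same ratio was -4.88 in the lowest mouse, mouse 8. For Lbh the ratio between dividing and non-dividing Lgr5 cells was -3.07 in the lowest mouse, mouse 6, which had 13 dividing Lgr5 cells.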

How the results depend on the processing

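The count of 2282 genes called between dividing Lgr5 cells and dividing cells without Lgr5 became 1423 with DESeq2, 1383 in control cells only, 1092 in clone cells only and 584 after thinning (of which 549 were among the 2282), and 1688 to 2344 with each mouse left out in turn. Without the mouse block it was 1979, and with sums per mouse and gate as the replicate block 2132. The 24 genes with the largest changes were called in the same direction under each of these alternatives wherever they could be tested, which was 7 genes after thinning. The 793 genes called between dividing and non-dividing Lgr5 cells became 314 with DESeq2 (calling 19 of the 24 named genes), 395 without the mouse block (23 of 24), 226 in control cells only (11 of 18), 158 after thinning (5 of 5) and 347 at a hashtag minimum of 80% (19 of 24), and in clone cells only 20 of 24 were called. It was 539 to 712 with a mouse left out. Fewer genes could be tested after thinning (2330 and 1849). For other drops the cause was not tested. With no filter on low counts, 10 genes were called for the interaction with time, 6 between clones and control and 38 between 72 h and 48 h, where DESeq2 called 1. Leaving out a mouse gave 0 to 6, 0 to 3 and 0 to 42.

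The clone-control difference in the share of all cells (0.834 percentage points, the same with mouse as a replicate block) was -4.09 at 48 h, 7.55 at 72 h with Lgr5 of at least 1 UMI, and -0.437 to 2.14 with a mouse left out. The difference between 72 h and 48 h in clones was -2.29 after thinning and 8.14 to 13.7 with a mouse left out. In control cells it was 0.298 at a mitochondrial limit of 10%, 2.13 at a hashtag minimum of 80%, 0.593 with Lgr5 of at least 1 UMI, 1.25 in mice with clones in pool 1, and -1.43 to 1.32 with a mouse left out. As a share of dividing cells, the clone-control difference (4.88; 3.65 within mice as a replicate block) was -5.56 in mice with clones in pool 1, -12.8 at 48 h, 18.2 at 72 h, 21.0 at 72 h with the mitochondrial limit of 10%, 27.8 at 72 h with Lgr5 of at least 1 UMI, and 0.953 to 10.8 with a mouse left out. The splits by time were chosen after seeing the data. The G1/S difference was -0.018 percentage points at the mitochondrial limit of 10% and -0.013 to 0.0219 with a mouse left out. The G2/M difference was 0.121 at that limit, -0.0459 in control cells only and -0.0167 to 0.0767 with a mouse left out.

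Few cells limit the 48 h clones, and median depth was higher in dividing Lgr5 cells than in both other classes. How much depth and mitochondrial share set the differences between classes was not tested beyond these alternatives.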
